A study of Arabidopsis thaliana with 18 samples.

Results

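CLE45 and OPS are 2 genes of the sieve element, the conducting cell of the phloem, and their expression was followed through induced vascular differentiation in Arabidopsis cotyledons. Each was chosen as a probe set that the platform annotation gives to that gene alone. CLE45 (AT1G69588) and OPS (AT3G09070) had 1 such probe set each, so that the 2 members are 2 of the 38408 probe sets on the array. No probe set with several genes named either of them, and neither shared its values with another probe set.

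CLE45 encodes a small secreted peptide of the CLE family. In the root it is perceived by the receptor kinase BAM3 and holds back the differentiation of protophloem sieve elements. OPS (OCTOPUS) is a membrane-associated protein with a polar position in developing phloem cells, and it promotes their entry into sieve element differentiation. It acts against the CLE45 and BAM3 signal and against BIN2, a GSK3-like kinase that represses brassinosteroid signalling. BES1 is a transcription factor at the end of that signalling pathway. The 2 genes therefore stand for opposing inputs into one cell fate, in a culture whose medium contains bikinin, an inhibitor of GSK3-like kinases.

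Total RNA of cotyledons from 6-day-old plants was hybridised to 18 arrays, 3 in each of 6 groups. The genotypes were Col wild type (WT) and 2 T-DNA insertion lines, bes1-1 and bes1-3, for which the labels give neither the insertion site nor the BES1 activity left. Seedlings of every group were raised in MS liquid medium at 22 °C in continuous light. The 0 h cotyledons had no VISUAL culture, a tissue culture system that induces vascular cells, and the 72 h cotyledons had been in it for 72 h. Bikinin was added at 10 µM, together with an auxin (2,4-D, 1.25 mg/L) and a cytokinin, kinetin, at a concentration of 0.25 mg/L. The 0 h and 72 h groups thus differ in the whole culture, of which bikinin was one component, and no group was cultured without it. BES1 itself was not analysed here, since the platform annotation used here does not name it, so the genotype labels were not checked by the targeted transcript. No label says whether replicates came from different plants or cultures. The tests therefore speak of the spread among these arrays, which may be technical.

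Values are log2 signal, so that a difference of 1 is a doubling. The 6 arrays of replicate 1 were on a lower scale than the other 12, with array medians of 5.19 to 5.46 against 5.91 to 6.25 and lower quartiles of 3.14 to 3.22 against 4.01 to 4.14. Since every group had 1 array of each replicate number, the shift widened the spread within each group and did not separate the groups. Two-sided tests were made with limma on all probe sets, without and with the replicate number as a block, and a probe set was called at a Benjamini-Hochberg adjusted p below 0.05. The values used here carry no detection call, so a signal below the lower quartile of its own array was taken only as an upper bound. In whole cotyledons, fewer cells of a type and less RNA per cell cannot be told apart.

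CLE45 was near the bottom of the array in uncultured cotyledons. In WT at 0 h its log2 signal was 2.96, 3.03 and 3.42 in replicates 1, 2 and 3. In bes1-1 it was 2.71, 3.21 and 3.20, and in bes1-3 it was 2.70, 3.30 and 3.54. All 9 values lay below the lower quartile of their array, and the genotypes overlapped throughout.

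After 72 h of culture every CLE45 value was above the highest 0 h value. WT read 5.76, 6.50 and 6.76, bes1-1 read 4.33, 5.58 and 5.87, and bes1-3 read 5.11, 6.15 and 6.89. No 72 h array was below its lower quartile. Replicate 1, from the arrays of lower scale, gave the lowest value in each genotype.

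Before culture OPS lay above the lower quartile of its array in most arrays, with a wide spread. In WT at 0 h it read 2.99, 5.34 and 4.20, in bes1-1 3.23, 5.42 and 4.56, and in bes1-3 4.01, 4.84 and 4.99. Only the lowest of these, WT replicate 1, was below the lower quartile of its array. WT replicate 3 and bes1-1 replicate 1 were above theirs by only 0.065 and 0.0045. The SD within a group was 1.18 in WT, 1.11 in bes1-1 and 0.53 in bes1-3, and the 3 genotypes overlapped.

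At 72 h the OPS replicates lay close together. WT read 7.0, 7.41 and 7.47, bes1-1 read 8.06, 8.36 and 8.64, and bes1-3 read 7.90, 8.54 and 8.45. Every 72 h value was above every 0 h value, and every mutant value was above every WT value at 72 h. The SD was 0.26 in WT, 0.29 in bes1-1 and 0.35 in bes1-3.

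**Figure D1:**
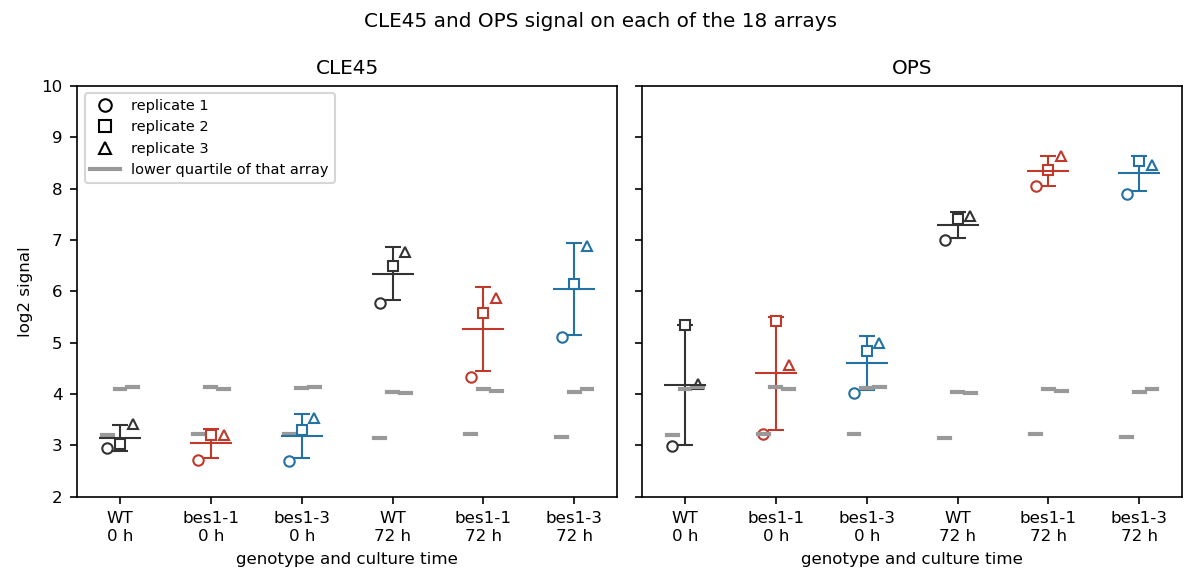
Log2 signal of CLE45 (left) and OPS (right) on each array, by genotype and culture time. Open symbols are single arrays by replicate number, horizontal lines are group means, bars are ± 1 SD (n = 3), and grey marks are the lower quartile of each array. CLE45 lies below the grey marks on all 9 arrays at 0 h, and at 72 h the 6 mutant arrays of OPS lie above the 3 WT arrays.

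The order of the group means differed between the genes. For CLE45 it was WT at 72 h (6.34 ± 0.52, SD, n = 3), bes1-3 at 72 h (6.05 ± 0.90) and bes1-1 at 72 h (5.26 ± 0.82). The 0 h groups followed at 3.18 ± 0.43 in bes1-3, 3.14 ± 0.25 in WT and 3.04 ± 0.29 in bes1-1. Neighbours within a time overlapped, and the step between the lowest 72 h group and the highest 0 h group did not.

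For OPS the order began with bes1-1 (8.35 ± 0.29) and bes1-3 (8.30 ± 0.35) at 72 h, which overlapped. WT at 72 h (7.29 ± 0.26) came next and overlapped with neither. The 0 h groups stood at 4.61 ± 0.53 in bes1-3, 4.40 ± 1.11 in bes1-1 and 4.18 ± 1.18 in WT, and overlapped with one another.

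Both genes rose in culture in all 3 genotypes. The comparison asks which genes respond to the vascular induction in WT and in the bes1 mutants. In WT, CLE45 was higher at 72 h by 2.81, 3.47 and 3.33 in replicates 1, 2 and 3. The limma estimate was 3.20 ± 0.45 (SE; adjusted p = 6.7e-05). The fold was 9.21 from the measured means and at least 5.77 with the 0 h arrays set to their lower quartiles, since the 0 h level is only bounded from above.

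OPS rose in WT by 4.01, 2.07 and 3.27 in the 3 replicates. The estimate was 3.12 ± 0.55 (adjusted p = 5.01e-04), an 8.67-fold difference that was 8.24-fold with the same floor. Of all probe sets, 8.7% were called higher in the WT induction and 13.3% had non-overlapping groups with the 72 h arrays higher, and both members were among each.

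In bes1-1 the CLE45 rise was 1.62, 2.37 and 2.68 by replicate, with an estimate of 2.22 ± 0.45 (adjusted p = 0.00194). This was a 4.67-fold rise, or at least 2.72-fold over the 0 h floor. OPS rose in bes1-1 by 4.83, 2.94 and 4.08, with an estimate of 3.95 ± 0.55 (adjusted p = 7.2e-05) and a fold of 15.5. In this line 10.9% of probe sets were called higher, and in 17.9% the 72 h arrays lay above the 0 h arrays without overlap.

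In bes1-3 the CLE45 rise was 2.41, 2.85 and 3.36 by replicate and 2.87 ± 0.45 by limma (adjusted p = 1.71e-04), a 7.32-fold rise and at least 4.67-fold over the floor. OPS rose by 3.89, 3.71 and 3.46, or 3.69 ± 0.55 (adjusted p = 9.9e-05), a 12.9-fold rise. The background in this line was 10.3% of probe sets called higher and 16.5% without overlap. The 6 rises were also called with the replicate block, where 18.9%, 28.5% and 24.2% of probe sets were called higher in WT, bes1-1 and bes1-3, and under every other alternative that was run for them.

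The mutant comparison at 72 h asks whether the level reached in culture depends on BES1. Set against WT with the same replicate number, CLE45 in bes1-1 stood lower by values of -1.44, -0.92 and -0.88. All 3 pairs had the lower value in bes1-1, although the groups overlapped, since the highest bes1-1 array (5.87) exceeded the lowest WT array (5.76). The estimate was -1.08 ± 0.45 (95% interval -2.04 to -0.12), a 2.11-fold difference. It was not called without the block (adjusted p = 0.475) and was called with it (SE 0.23, 95% interval -1.58 to -0.58, adjusted p = 0.00861).

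Of all probe sets, 0.599% were called lower in bes1-1 at 72 h without the block and 6.3% with it. The blocked call for CLE45 held when any 1 of the 6 arrays was left out, with adjusted p of 0.0172 to 0.0460. Within replicates 2 and 3 alone the difference was -0.90 and was not called (adjusted p = 0.0888).

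In bes1-3 the CLE45 differences from WT at 72 h were -0.66, -0.35 and 0.14, so that 2 pairs were lower and 1 was higher. The estimate of -0.29 ± 0.45 (95% interval -1.25 to 0.67) was called neither without the block (adjusted p = 1.0) nor with it (adjusted p = 0.519). In this comparison 0.0729% of probe sets were called lower without the block and 3.46% with it. Without the first bes1-3 replicate the estimate turned to 0.18. The blocked 95% interval ran from -0.79 to 0.21.

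The 2 lines were also compared with each other for CLE45 at 72 h. bes1-1 stood at -0.78, -0.58 and -1.02 relative to bes1-3, lower in all 3 pairs with overlapping groups. The estimate was -0.79 ± 0.45 (95% interval -1.75 to 0.17), not called without the block (adjusted p = 1.0) or with it (95% interval -1.29 to -0.29, adjusted p = 0.147). In that contrast 0.0104% of probe sets were called in either direction without the block and 1.16% with it. The blocked interval excludes 0, which is an unadjusted p below 0.05, reached there by 10.7% of all probe sets. The difference between the lines did not pass the adjustment over all probe sets.

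OPS at 72 h was above WT in every pair of both lines. In bes1-1 the differences were 1.06, 0.95 and 1.16, and in bes1-3 they were 0.90, 1.13 and 0.98. The groups did not overlap in either line. This held for 9.29% of all probe sets in bes1-1 and 6.57% in bes1-3, with the mutant higher.

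The OPS estimate in bes1-1 was 1.06 ± 0.55 (95% interval -0.10 to 2.22), a 2.08-fold difference. It was not called without the block (adjusted p = 0.666), where 0.245% of probe sets were called higher, or with it (SE 0.35, 95% interval 0.30 to 1.82, adjusted p = 0.0652), where 7.14% were. In bes1-3 the estimate was 1.00 ± 0.55 (95% interval -0.16 to 2.17), a 2.01-fold difference. It too was not called without the block (adjusted p = 1.0, background 0.0573% higher) or with it (95% interval 0.24 to 1.76, adjusted p = 0.106, background 3.85% higher). Both blocked intervals exclude 0, which is an unadjusted p below 0.05. Of all probe sets, 27.8% reached this with the block in bes1-1 and 22.3% in bes1-3. Neither OPS difference passed the adjustment over all probe sets. Between the lines OPS differed by 0.16, -0.18 and 0.18, an estimate of 0.05 ± 0.55 with a 95% interval of -1.11 to 1.22.

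**Figure D2:**
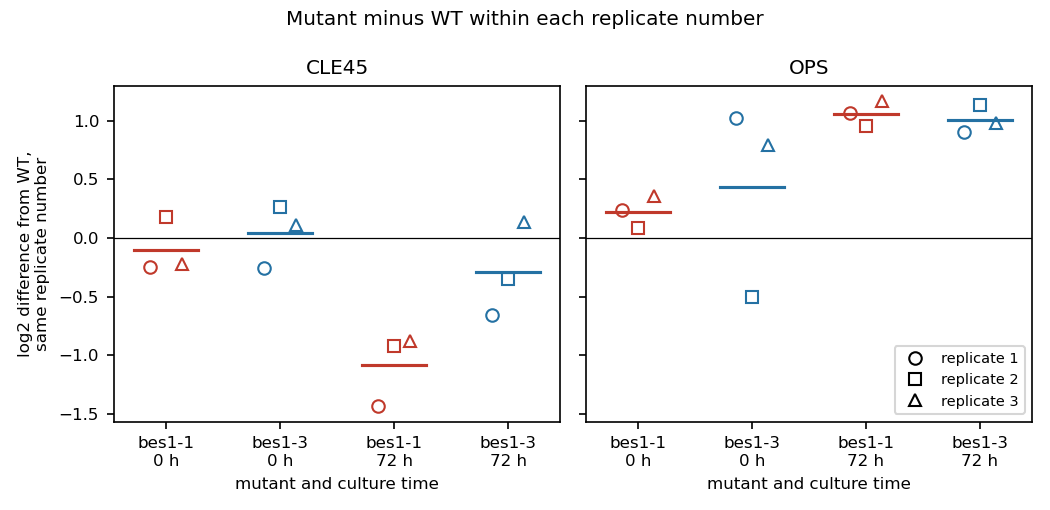
Log2 signal of each mutant array minus that of the WT array with the same replicate number, for CLE45 (left) and OPS (right) at 0 h and 72 h. Symbols are replicate numbers and horizontal lines are means over the 3 pairs. The 6 OPS differences at 72 h lie between 0.90 and 1.16, and the 3 CLE45 differences of bes1-1 at 72 h lie between -1.44 and -0.88.

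With the 2 lines averaged, OPS was higher than WT at 72 h by 1.03 ± 0.47 (95% interval 0.03 to 2.04) and CLE45 lower by a difference of -0.68 ± 0.39 (95% interval -1.52 to 0.15). Neither was called without the block (adjusted p = 0.544 for OPS and 0.709 for CLE45), where 0.221% of probe sets were called higher and 0.404% lower. At an unadjusted p below 0.05, 1 of the 2 members, OPS, passed in that fit, as did 8.9% of all probe sets. With the block both were called, OPS at adjusted p = 0.0379 and CLE45 at adjusted p = 0.0357, in a comparison where 8.62% of probe sets were called higher and 6.58% lower.

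These 2 blocked calls were narrow. Each held for 3 of the 9 fits that left out 1 array, with adjusted p of 0.0272 to 0.202 for OPS and 0.0175 to 0.137 for CLE45. An exact two-sided permutation test of the 6 mutant arrays against the 3 WT arrays gave p = 0.0238 for OPS, the smallest that the 84 regroupings can give. The same exact permutation test gave p = 0.262 for CLE45, whose averaged mutant differences were -1.05, -0.63 and -0.37 in replicates 1, 2 and 3. This test exchanges arrays across replicate numbers and so leaves the scale shift of replicate 1 in the spread. All 6 mutant arrays of OPS were above all 3 WT arrays, as for 4.27% of probe sets. That order alone fixes the permutation p of OPS, so the test adds nothing to it. The permutation test was added after the data were seen and treats the 2 lines as 1 group.

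The shared direction of the pairs has its own background. At 72 h, 21.5% of all probe sets were higher in both lines in all 3 replicate numbers, as OPS was, and 11.1% were lower, which CLE45 was not. The median difference from WT over all probe sets was 0.09 in bes1-1 and 0.07 in bes1-3, small beside both members' differences in bes1-1. With arrays centred on their medians, the 72 h differences of the averaged mutants were -0.78 for CLE45 and 0.93 for OPS. With that centring and the block CLE45 was called (adjusted p = 0.0213) and OPS was not (adjusted p = 0.0724). The share of all probe sets called in that fit is not given here.

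Before culture no difference between genotypes was detected for either gene. At 0 h the CLE45 estimate was -0.10 ± 0.45 for bes1-1 (95% interval -1.06 to 0.86) and 0.04 ± 0.45 for bes1-3 (95% interval -0.92 to 1.00). Since all 9 arrays were below their lower quartile, these values carry no order. The OPS estimate was 0.22 ± 0.55 in bes1-1 (95% interval -0.94 to 1.39) and 0.43 ± 0.55 in bes1-3 (95% interval -0.73 to 1.60).

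By replicate, OPS at 0 h differed from WT by 0.24, 0.08 and 0.36 in bes1-1, and by 1.02, -0.50 and 0.79 in bes1-3. Without the block, the intervals include a doubling in either line. Between the lines, bes1-1 minus bes1-3, the estimates were -0.14 for CLE45 and -0.21 for OPS. None of the 6 comparisons at 0 h was called by limma, and none passed an unadjusted p of 0.05. The background of calls without the block was 0.0208% for bes1-1, 0.00781% for bes1-3 and 0.0703% between the lines. Of all probe sets, 2.33%, 0.948% and 3.16% passed the unadjusted p in that fit, in the same order.

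Whether the rise itself differed between genotypes was tested as the difference of inductions. For CLE45 in bes1-1 it was -1.18, -1.1 and -0.66 by replicate, a smaller rise in all 3, with an estimate of -0.98 ± 0.64 (95% interval -2.34 to 0.38, adjusted p = 0.947). For bes1-3 it was -0.40, -0.61 and 0.02, with an estimate of -0.33 ± 0.64. The corresponding OPS values were 0.82, 0.87 and 0.81 in bes1-1 (estimate 0.83 ± 0.77) and -0.12, 1.64 and 0.19 in bes1-3 (estimate 0.57 ± 0.77).

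None of these 4 differences of induction was called without the block, and none passed an unadjusted p of 0.05 there. The share of probe sets called was 0.0521% for bes1-1 and 0 for bes1-3. The 3 OPS values of bes1-1 lay between 0.81 and 0.87, whereas those of bes1-3 ran from -0.12 to 1.64. For the mean of the mutants the estimates without the block were -0.65 ± 0.55 for CLE45 and 0.70 ± 0.67 for OPS, also without a call, where 0.013% of probe sets had one. The difference of inductions was thus not established for either gene, and a CLE45 value at 0 h that is only a bound enters each of its differences.

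**Figure D3:**
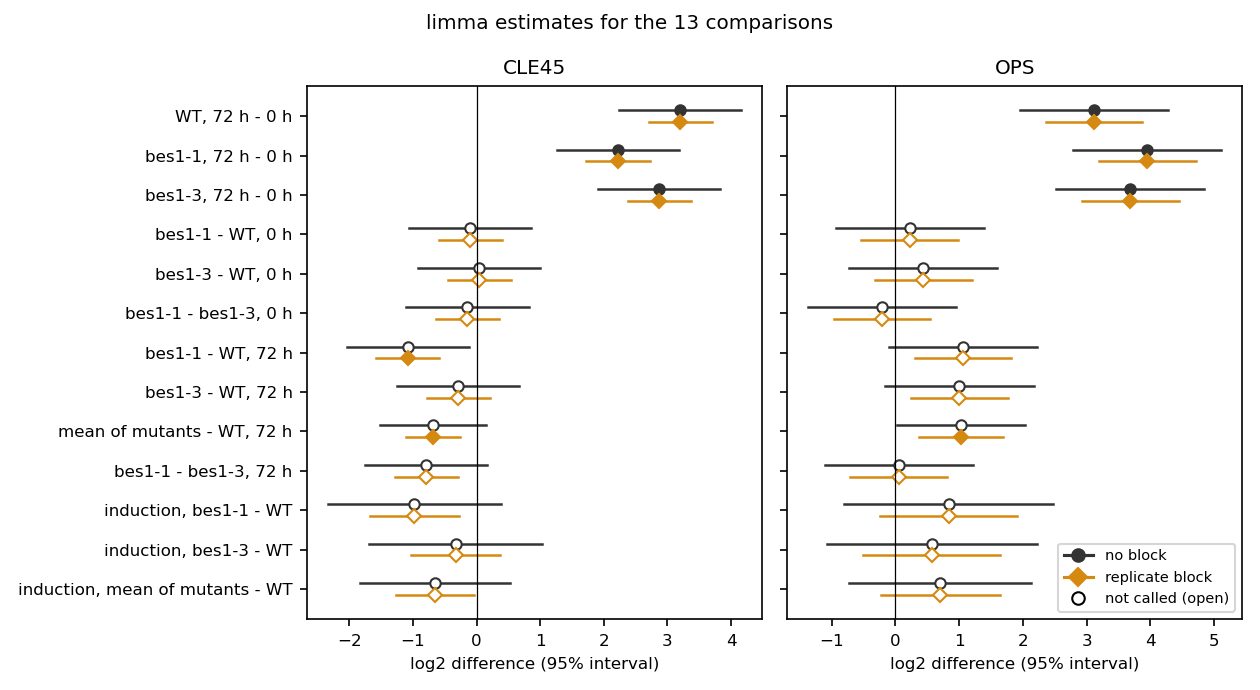
limma estimates (points) and 95% intervals (lines) of the 13 comparisons for CLE45 (left) and OPS (right), on the log2 scale, without and with the replicate block. Filled points are called at an adjusted p below 0.05. Both genes are called in the 3 inductions in both fits, and at 72 h the called values are those of CLE45 in bes1-1 and of both genes for the mean of the mutants, all with the block.

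The other genes of the pathway were taken from lists drawn up with earlier results of these data known. Of 34 listed sieve element regulators, 8 were measured, among them CLE45 and OPS. In each of the 3 inductions 7 of the 8 were called higher and 0 lower. Of all probe sets, 8.7%, 10.9% and 10.3% were called higher in WT, bes1-1 and bes1-3, the background for each list below. The median change was 2.20 in WT, 2.14 in bes1-1 and 2.67 in bes1-3, beside medians over all probe sets of -0.03, 0.03 and 0.03. The mean log2 signal of the 8 genes was 4.30 to 5.56 on the 0 h arrays and 6.82 to 7.91 on the 72 h arrays.

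The exception was CLE26, a CLE peptide gene whose changes were 0.38, 0.96 and 0.42 in WT, bes1-1 and bes1-3. With the block its change in bes1-1 was called (adjusted p = 0.00166). CLE25, which encodes a CLE peptide of vascular tissue, rose by 2.69 in WT, 3.44 in bes1-1 and 3.53 in bes1-3. The locus AT2G44830 rose by 3.76, 4.18 and 3.94, and AT5G02460 by 1.72, 2.05 and 2.34. These loci, PAX and PEAR2 in the list, carry no gene name in the platform annotation.

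At 72 h none of the 8 listed genes was called in the mean of the mutants without the block. An unadjusted p of 0.05 was passed by 2 of them and by 8.9% of all probe sets. With the block 3 of the 8 were called higher and 1 lower, where 8.62% and 6.58% of all probe sets were. The higher ones were OPS, CLE25 (0.72, adjusted p = 0.0112) and AT5G02460 (0.48, adjusted p = 0.0278), and the lower one was CLE45. The median difference of the 8 was 0.40 against 0.08 over all probe sets. Inside the list, CLE45 had the lowest and OPS the highest difference.

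Among the peptide ligands, 18 of 32 listed CLE genes were measured. CLE25, CLE26 and CLE45 were also counted among the sieve element regulators. In WT 5 rose and 0 fell: CLE44 by 4.22, CLE45 by 3.20, CLE42 by 2.89, CLE25 by 2.69 and CLE41 by 1.46. CLE41 and CLE44 encode the peptide TDIF, which maintains the procambium. The same 5 genes were called in bes1-1, and in bes1-3 CLE16 (1.13) was called as well. The median change of the 18 was 0.44 in WT, 0.50 in bes1-1 and 0.43 in bes1-3.

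The other CLE genes gave no call in the WT induction, and several were not shown to be above background. CLE18, CLE21, CLE27, CLE43, CLV3 and AT5G59305 had group means below the lower quartile in all 6 groups. CLV3, which restricts stem cells in the shoot meristem, stood at -0.24 in WT, and CLE40, which acts in the root meristem, at -0.26. With the block 7 CLE genes were called higher and 0 lower in WT, 9 and 5 in bes1-1, and 7 and 2 in bes1-3. Of all probe sets, 18.9%, 28.5% and 24.2% were called higher there in WT, bes1-1 and bes1-3, and 20.8%, 21.9% and 21.3% lower.

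At 72 h none of the 18 CLE genes was called in either mutant without the block, and 2 passed an unadjusted p of 0.05 in bes1-1 and 0 in bes1-3. Of all probe sets, 8.56% passed it in bes1-1 and 5.1% in bes1-3. With the block CLE45 was the called gene that stood lower in bes1-1. CLE25 (0.81, adjusted p = 0.0132) and CLE43 (1.09, adjusted p = 0.00169) stood higher there, and CLE27 lower in bes1-3 (-0.83, adjusted p = 0.0390). With the block 7.14% of all probe sets were called higher and 6.3% lower in bes1-1, and 3.85% higher and 3.46% lower in bes1-3. CLE43 and CLE27 were below the lower quartile in all groups. The procambial CLE44 and CLE41 differed from WT in bes1-1 by 0.47 and -0.03 and were not called.

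**Figure D4:**
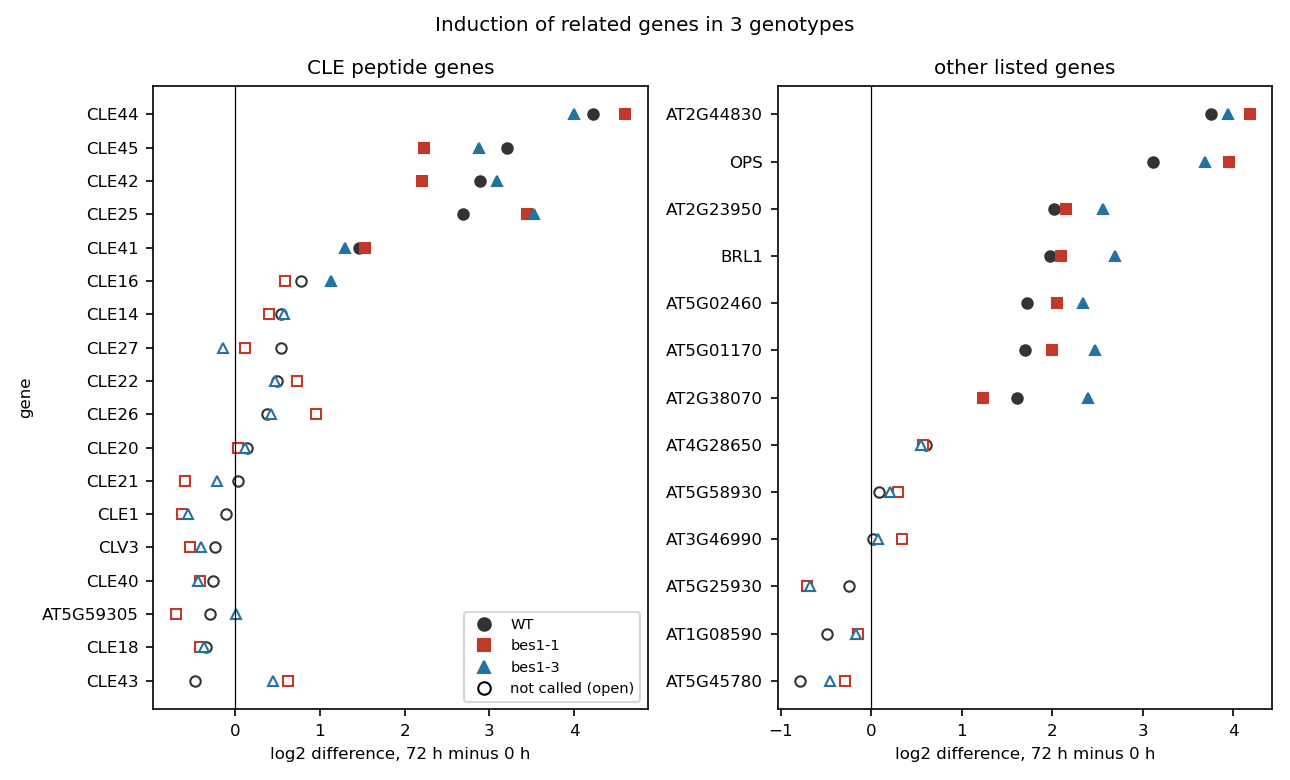
Change in culture (72 h minus 0 h, log2) of the 18 measured CLE genes (left) and of other listed genes (right), including OPS, in WT, bes1-1 and bes1-3. Filled symbols are called by limma without the block and open symbols are not. CLE45 lies between 2.22 and 3.20 and OPS between 3.12 and 3.95, while most other CLE genes lie within 1 of 0.

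BAM3, the receptor of CLE45, was not analysed here. Of 16 listed receptors and coreceptors of CLE peptides 5 were measured, and 1 was called higher in each genotype. This was AT2G23950, with 2.02 in WT, 2.15 in bes1-1 and 2.57 in bes1-3. AT5G45780 stood at -0.78, -0.29 and -0.45, and AT5G25930 at -0.25, -0.71 and -0.68, without a call. AT4G28650 had 2 probe sets, both with positive changes in each genotype. The brighter one, which stands for the gene among the 5, was called in no genotype (0.61 in WT, adjusted p = 0.0525). The dimmer one was called in each (2.12 in WT, adjusted p = 6.2e-04), with 0 h means of 3.56, 3.61 and 3.51 in WT, bes1-1 and bes1-3, below the lower quartile.

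AT1G08590 also had 2 probe sets, neither of them called in WT, at -0.48 and -0.90. The list median was -0.25 in WT, beside -0.03 over all probe sets. At 72 h 0 of the 5 were called in the mean of the mutants, without or with the block, while 4 passed an unadjusted p of 0.05 in the blocked fit, where 29% of all probe sets did, and 0 in the other, where 8.9% did.

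OPS was listed with 4 loci drawn up as its relatives, which carry no gene name in the platform annotation. Of the 5 genes 3 were called higher in each genotype, with a median of 1.61 in WT. These 3, OPS, AT5G01170 and AT2G38070, were also counted among the sieve element regulators. AT5G01170 rose by 1.70, 2.00 and 2.48 in WT, bes1-1 and bes1-3, and AT2G38070 by 1.61, 1.23 and 2.40. AT3G46990 and AT5G58930 stood at 0.02 and 0.09 in WT and were not called. At 72 h OPS was the 1 member of the 5 called in the mean of the mutants with the block, where 8.62% of all probe sets were called higher. AT5G01170 stood at 0.64 there (adjusted p = 0.0536) and AT2G38070 at 0.08.

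Of 19 listed genes of brassinosteroid and GSK3 signalling, 1 was measured. BRL1, a brassinosteroid receptor of vascular cells, rose by 1.98 in WT, 2.09 in bes1-1 and 2.69 in bes1-3. At 72 h it stood 0.42 and 0.62 above WT in bes1-1 and bes1-3, without a call. BIN2 and BZR1 were not analysed here.

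Markers of other cell types moved over the same interval. Of 5 genes listed for procambium or cambium, 4 rose in WT and 5 in each mutant. They include CLE41, CLE42 and CLE44, which were also counted among the CLE genes. All 3 xylem wall genes were called higher in each genotype. All 4 measured photosynthesis genes were called lower in each genotype, where the background of lower calls was 10.8% in WT, 9.76% in bes1-1 and 11.4% in bes1-3. PORB, which makes protochlorophyllide into chlorophyllide, fell by 2.81 in WT, and PRK and SBPASE, of the Calvin cycle, fell by 2.79 and 2.74. The 4 genes had mean log2 signals of 10.8 to 11.6 over the 0 h arrays and 7.12 to 9.49 over the 72 h arrays. Their high 0 h signal is that of a green tissue, which the cotyledon label states. SWEET11, a sucrose exporter of phloem parenchyma, fell by 4.53 in WT, by 3.47 in bes1-1 and by 4.18 in bes1-3. The other measured genes listed for companion cells and phloem parenchyma were AT3G12730, which fell by 1.82, 1.75 and 1.54 in the 3 genotypes, and SWEET13 at -0.14, 0.40 and 0.54 without a call. The defining companion cell gene SUC2 was not analysed here. Of 3 stomatal lineage factors, SPCH and MUTE fell in each genotype, and FMA was called lower in bes1-1 (-1.11). The part of these cell types in the rise of CLE45 and OPS was not tested.

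Some of these markers also differed between genotypes at 72 h. IRX15, GUT2 and IRX15-L, which act in xylan synthesis of secondary walls, stood at -2.88, -1.49 and -2.19 in bes1-1 relative to WT, where 2 of the 3 were called lower without the block and 3 with it. In bes1-3 they stood at -1.58, -0.38 and -0.79, with 0 called without the block (1 at an unadjusted p below 0.05) and 1 with it. Of all probe sets, 0.599% and 6.3% were called lower in bes1-1 without and with the block. In bes1-3 these shares were 0.0729% and 3.46%, and 5.1% passed the unadjusted p without the block. The mean log2 signal of the 3 xylan genes was 9.57 to 10.6 on the 3 WT arrays, 7.12 to 8.85 in bes1-1 and 8.61 to 9.72 in bes1-3. Of the 72 h groups, bes1-1 was also the one with the lowest mean of CLE45, although the lines were not shown to differ in that gene. The OPS mean stood above WT by 1.06 in bes1-1 and 1.00 in bes1-3, although neither difference was called, without or with the block. A gene of the procambium list singled out after its values were seen, AT2G28510, also stood higher than WT in both lines, at 1.47 in bes1-1 (adjusted p = 0.0289 without the block) and 1.1 in bes1-3 (adjusted p = 0.281, and 0.00878 with the block). SPCH stood at -1.33 in bes1-1 and -1.57 in bes1-3, called only with the block (adjusted p = 0.00560 and 0.00510), and FMA at -0.64 and -0.79, likewise. The SPCH means of both lines at 72 h were below the lower quartile. The other stomatal factor, MUTE, was below the lower quartile in the 3 groups at 72 h. The part of any of these cell types in the 72 h differences of CLE45 and OPS was not tested.

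None of the 4 measured reference genes was called without the block in any of the 3 inductions, and none passed an unadjusted p of 0.05 there. Of all probe sets, 27.3%, 31.5% and 30.4% passed it in WT, bes1-1 and bes1-3. The changes of the reference genes in WT ran from -0.35 for GAPC2 to 0.42 for PEX4. With the block 1 was called higher and 1 lower in WT. With arrays centred on the reference genes, the CLE45 difference in bes1-1 at 72 h was -1.05.

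Profiles like those of the members were sought by the root mean square (RMS) difference over the 18 arrays, each profile centred on its own mean, among 16539 genes. The 5 nearest to CLE45 were AT3G11720 (RMS difference 0.252), AT3G53010 (0.279), AT2G44000 (0.287), AT1G68390 (0.289) and AT5G12300 (0.291). The median over all genes was 1.52, and OPS stood at 0.940 from CLE45. The profiles share the scale shift of the replicate 1 arrays.

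The 5 neighbours of CLE45 rose in WT by 2.98, 3.48, 3.35, 3.69 and 3.38 in that order, and in bes1-1 by 2.12, 2.21, 1.54, 1.81 and 2.31. Their bes1-1 values at 72 h relative to WT were -1.02, -1.25, -1.59, -1.51 and -1.26. The likeness measure includes these arrays, so the shared direction follows from the choice. None of the 5 carries a gene name in the tables used here.

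Nearest to OPS were AT5G50090 (RMS difference 0.363), GH9B8 (0.415), AT3G19370 (0.428), AT1G49870 (0.435) and ATL5 (0.443), with a median of 1.93 over all genes. GH9B8 encodes a glycosyl hydrolase of family 9. AT5G50090 rose by 2.49 in WT, 3.60 in bes1-1 and 3.48 in bes1-3. The 72 h differences of the 5 from WT ranged from 0.07 for AT1G49870 to 1.39 for AT5G50090 in bes1-1. Here too the likeness measure includes these arrays, so the shared direction follows from the choice. With the mean of each replicate number removed, 1 of the 5 neighbours was retained for each member, AT3G11720 for CLE45 and AT5G50090 for OPS.

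**Figure D5:**
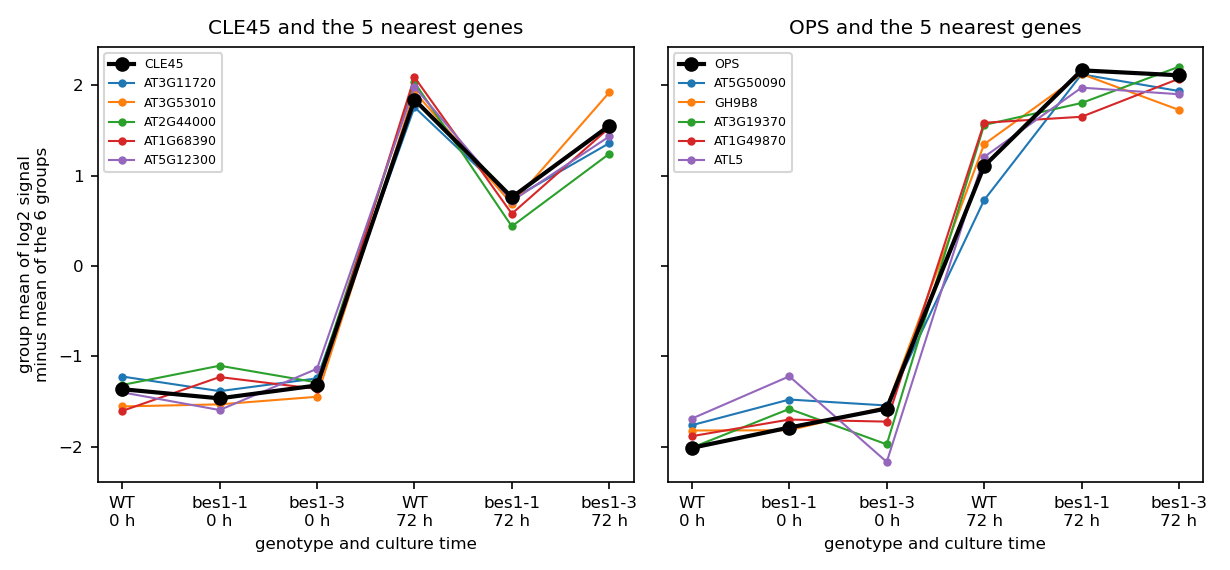
Group means of log2 signal for CLE45 (left) and OPS (right), thick black lines, with the 5 genes of nearest profile, each centred on its mean over the 6 groups. The lines join the 6 groups only to guide the eye. All plotted CLE45 profiles dip at bes1-1 after 72 h, whereas the OPS profiles lie above their WT level in both mutants at 72 h. The genes were chosen for likeness over these same arrays, so the shared patterns follow from the choice.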

How the data were processed

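Expression was measured on Affymetrix arrays from biotin-labelled cRNA, 1 sample per array and 18 samples in 6 groups of 3. The values deposited by the authors, 1 for each array and probe set, were taken as log2 signal because of their range and were used without further scaling. Affymetrix Expression Console is named in the submitters' processing notes. How it corrected, normalized and summarised the probes, and its version, is not stated in the sources used. The number of arrays limits the precision.

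The platform annotation gave 16722 of 38408 probe sets to 1 gene, 759 to several and listed none for 20927. Of the first, 16714 found a locus in the RefSeq genes of TAIR10.1, 16574 by gene ID and 140 by symbol, for names only. A listed gene with several probe sets was represented by its brightest one over all arrays.

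A limma model (limma 3.58.1, R 4.3.3) of the 6 group means was fitted to all arrays (12 residual degrees of freedom), with Benjamini-Hochberg adjustment over all probe sets in each of 13 comparisons. The fit without the block was tested on simulated data for the WT induction only, with independent noise and no replicate effect. That test does not bear on the blocked fits or the mutant comparisons. Comparisons at one time share their WT arrays, and averaged mutants reuse both lines. Same-numbered arrays deviated together: the correlation of their deviations from the group means was 0.17 or more in 8 of 9 pairs of groups, against at most 0.29 between differently numbered arrays, a range that overlaps with it. In these 8 pairs of groups it was 0.46 to 0.55 for replicate 1, the arrays of lower scale, and 0.17 to 0.32 for replicates 2 and 3. By the criterion of 0.1 for every pair the numbers were taken as pairing the arrays, which is why blocked values stand beside the others. For replicates 2 and 3 the criterion does not show pairing, since their values overlap with those between differently numbered arrays. For bes1-1 and WT at 0 h the correlation was 0.01 to 0.50, so pairing was not established there. Both members were named, with every measured gene of 5 lists, up to 4 called genes of 6 others (or 2 uncalled where none was called), and 5 nearest profiles for each member. The members and lists were chosen with earlier results of these data known. Of 161 listed genes 50 were measured. Alternatives were scaling, the replicate block, a floor, filters, the variance model and leaving out arrays.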

Additional observations from a re-analysis of the deposited data

How the results depend on the processing

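Over the 13 comparisons of both genes, 747 alternative values were computed, of which 685 kept their direction and their side of the threshold, 32 changed sign and 30 came to pass their test's threshold. Of these 30, 1 is the exact permutation test of OPS, whose p is not adjusted over probe sets and is fixed by the order of the arrays. The 3 inductions of each gene were called in all 24 alternatives for CLE45 and all 25 for OPS, with values of 2.53 to 3.49, 1.45 to 2.69 and 2.22 to 3.34 for CLE45 in WT, bes1-1 and bes1-3, and of 2.52 to 3.70, 3.36 to 4.46 and 3.38 to 3.89 for OPS. CLE45 lay below the filter on probe sets above the median mean and has no value there. The alternatives that combine the block with a scaling, the blocked fits without 1 array and the permutation test were added after the data were seen.

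The replicate block moved the number of probe sets called in the WT induction from 7494 to 15250, in bes1-1 at 72 h from 324 to 5163 and in the mean of the mutants at 72 h from 240 to 5838. CLE45 in bes1-1 at 72 h was called with the block (-1.08), quantile normalization with or without the block (-1.16), median centring with or without it (-1.20) and reference gene centring with or without it (-1.05). Leaving out 1 array gave -1.39 to -0.61 without the block (0 of 6 called) and -1.19 to -0.86 with it. For the mean of the mutants, CLE45 was called with the block (-0.68), quantile normalization and block (-0.75), median centring with or without block (-0.78) and reference centring and block (-0.67), with -0.97 to -0.45 without 1 array and -0.80 to -0.57 for the block without 1 array. OPS was called there with the block (1.03), quantile normalization and block (1.00) and reference centring and block (1.04), and passed the unadjusted permutation test (1.03), with 0.88 to 1.13 without 1 array and 0.82 to 1.25 for the block without 1 array. The shares of all probe sets called under quantile normalization and under each centring are not given here. The calls of CLE45 and OPS in those fits therefore have no background beside them.

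For the difference of inductions of CLE45 in bes1-1, the blocked fit gave -0.98 (adjusted p = 0.0797), and the value was called with median centring and block (-1.17) and in 1 of 12 blocked fits without 1 array. The range was -1.29 to -0.51 without 1 array and -1.21 to -0.76 with the block. In this comparison 3199 of 38408 probe sets were called with the block and 20 without it, so a blocked call is far more common. The share called with median centring and block is not given here. The block gave adjusted p of 0.322 for OPS there, and 0.689 for CLE45 and 0.645 for OPS in bes1-3.

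Each result that changed sign under an alternative was smaller than its standard error in the fit without the block. CLE45 at 0 h gave 0.0025 in bes1-1 under the floor, and -0.19 to 0.064 without 1 array (-0.25 to 0.13 with the block). In bes1-3 it gave -0.0030 under quantile normalization, with or without the block, and -0.14 to 0.28 without 1 array (-0.098 to 0.28 with the block). OPS at 0 h gave -0.37 to 0.81 in bes1-1 without 1 array (-0.11 to 0.64 with the block, whose 95% interval over all arrays was -0.54 to 0.98) and -0.16 to 1.02 in bes1-3 (0.12 to 0.86). Between the lines at 0 h, OPS gave 0.077 within replicates 2 and 3 and -0.72 to 0.38 without 1 array (-0.54 to 0.099), and CLE45 -0.38 to 0.035 (-0.29 to 0.028). At 72 h OPS between the lines gave -0.14 to 0.20 (-0.16 to 0.33), and CLE45 in bes1-3 gave -0.71 to 0.18 (-0.53 to -0.067). The difference of inductions in bes1-3 gave -0.75 to 0.14 for CLE45 (-0.57 to -0.11) and -0.012 to 1.16 for OPS (0.15 to 0.89). The cause of these changes was not tested.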
